A study of Mus musculus with 9 samples.

Results

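The genes described here are 36 genes of the lysosome and of the MiT/TFE family of transcription factors, taken by name from the 35288 genes of the count table. The list covers 3 TFE family factors (Tfeb, Tfe3 and Mitf), 8 lysosomal membrane proteins, 7 cathepsins, 7 glycosidases, 7 other hydrolases, activators and lumenal carriers, and 4 subunits of the vacuolar proton pump. RNA was sequenced from T15, a murine peripheral T-cell lymphoma cell line that lacks Smarcb1, a core subunit of the SWI/SNF chromatin remodelling complex. Groups of 3 libraries each were compared, all from this Smarcb1-negative line. They were control cells, cells given the histone deacetylase inhibitor SAHA (vorinostat) at 1 µM for 72 h, and Smarcb1-RE cells, which carried a lentiviral, Dox-inducible Smarcb1 cDNA, were selected with G418 and were induced with Dox at 0.5 µg/µl for 72 h. The sources name an untreated, a vehicle and a control-plasmid condition without saying which of these the 3 control libraries are. Several stable clones of transduced cells were established, and whether the 3 Smarcb1-RE libraries are different clones or cultures of 1 clone is not given. Effects of the virus, of G418, of Dox and of differences between clones therefore cannot be told apart from those of Smarcb1. The study asked which genes are silenced by the loss of Smarcb1 and what SAHA does to the transcriptome of these cells.

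Lysosomes are acidic organelles in which proteins, glycans and lipids are broken down. Their hydrolases are made in the endoplasmic reticulum, mostly carried to the lysosome by mannose 6-phosphate receptors, and work at the low pH set by the vacuolar H+-ATPase. Tfeb, Tfe3 and Mitf are related basic helix-loop-helix leucine zipper factors that bind the E-box CACGTG and related elements in the promoters of many lysosome genes. They are held in the cytoplasm when the kinase complex mTORC1 phosphorylates them at the lysosome surface, so that much of their control is not visible in their RNA level. In T cells, lysosomes and lysosome-related granules serve receptor turnover, autophagy and killing.

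Promoters of the listed genes were searched for the E-box and for TCACGTGA, the E-box flanked as TFE factors are known to prefer, because these are the sequences through which the family acts. The windows ran from 250 bases before to 50 bases after each RefSeq transcript start in GRCm38.p6, and both motifs read the same on either strand. Of the 36 genes, 31 had at least 1 window, 39 in all. CACGTG was present in 13 of 39 windows (33.3%), against 7.15% of all 32851 promoter windows of this length. TCACGTGA, which contains CACGTG, was present in 7 of 39 windows (17.9%), against 0.974% of all windows. The 7 genes with the longer motif were Ctsa, Cln3, Ctsd, Mcoln1, Atp6v0d1, Atp6v1a and Gla, and the stretches around it are shown on the strand of the gene with each TCACGTGA in capitals.
Ctsa, chr2:164833730-164833797, plus strand: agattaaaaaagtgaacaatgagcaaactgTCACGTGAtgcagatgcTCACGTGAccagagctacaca
Cln3, chr7:126583321-126583388, minus strand: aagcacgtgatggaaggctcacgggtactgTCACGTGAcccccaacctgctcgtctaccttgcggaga
Ctsd, chr7:142387889-142387956, minus strand: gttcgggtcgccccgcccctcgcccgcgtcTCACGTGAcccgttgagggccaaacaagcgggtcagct
Mcoln1, chr8:3500443-3500510, plus strand: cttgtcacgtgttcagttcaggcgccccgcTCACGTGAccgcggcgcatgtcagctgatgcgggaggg
Atp6v0d1, chr8:105566040-105566098, minus strand: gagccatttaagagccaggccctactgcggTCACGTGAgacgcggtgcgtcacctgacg
Atp6v1a, chr16:44139354-44139421, minus strand: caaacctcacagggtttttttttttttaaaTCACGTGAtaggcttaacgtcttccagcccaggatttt
Gla, chrX:134601163-134601255, minus strand: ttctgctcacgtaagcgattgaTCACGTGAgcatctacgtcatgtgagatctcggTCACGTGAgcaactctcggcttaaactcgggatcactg
The motif lay at position -46 from the transcript start in Mcoln1, at -99 in Ctsd and at -4 in Atp6v0d1. Ctsa and Gla each held it 2 times. Ctsa and Cln3 had 2 windows each, of which only 1 held the motif. Lamp1, which has no TCACGTGA, held 4 copies of CACGTG, the largest number in any of these windows. None of the 8 windows of Tfeb, Tfe3 and Mitf held either motif. Among further gene lists described below, TCACGTGA was in 4 of 9 windows of sorting genes. It was in 2 of 15 windows of other membrane and transport genes and 1 of 13 of other proton pump subunits. The autophagy genes had it in 1 of 23 windows. Other hydrolases and cofactors had it in 0 of 23, and mTORC1 and TFE regulators in 0 of 21. These letters are a description of the windows and were not tested for binding.

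Library totals lay between 20900477 and 24941494 estimated counts, and 13697 genes passed the filter on low counts and were tested in a single edgeR fit. A gene was called when its Benjamini-Hochberg adjusted p-value over all tested genes was below 0.05. Levels are TMM-scaled CPM, the counts of a gene relative to the scaled library size, and 3 counts in a library were worth 0.123 to 0.133 CPM. Counts of Smarcb1 itself were 2, 5 and 8 in control, 7, 13 and 3 with SAHA and 151, 147 and 142 in Smarcb1-RE libraries. The T-cell receptor chains Cd3d, Cd3e and Cd3g and the co-receptor Cd8a were abundant in all libraries, with at least 228 CPM for Cd3d, whereas Cd4 had 0 counts in every library and Cd2, Cd5 and Thy1 had at most 6. Control replicate 1 stood further from the other controls (chi-square per gene 13.4 and 15.0) than any other libraries of a group from each other (2.12 to 4.69). The 5 B cell markers summed to 0.935 to 1.14 CPM in control, 1.24 to 1.86 with SAHA and 7.25 to 7.97 in Smarcb1-RE, where Pax5 and Ms4a1 were called higher, Pax5 also with SAHA (log2 fold change 2.90), and Cd79a and Cd79b had at most 4 counts, and their part in the results below was not tested. In these bulk libraries, fewer cells of a type and less RNA per cell cannot be told apart.

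All 36 genes were in the table and 33 passed the filter. SAHA moved the list upwards more often than downwards, with 17 genes higher and 9 lower than in control, whereas 32.6% of all tested genes were called higher and 34.3% lower. The median log2 fold change of the 33 genes was 0.11, against 0.003 over all tested genes. In Smarcb1-RE cells 12 genes were higher and 10 lower than in control, beside 39.2% and 38.6% of all tested genes, and the median of 0.02 lay at that of all genes (0.01). Scaling by library totals alone shifted the median of all genes in that comparison to 0.17 and the split of the listed genes to 17 higher and 6 lower, and the split over all genes from 50.4% to 61% higher among those called. Under that scale Ctsb, Ctsd and Naglu were also called higher in Smarcb1-RE (log2 fold changes 0.18, 0.19 and 0.18), and Lamp1 and Glb1 were no longer called (-0.05 and -0.04).

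Both comparisons share the same control libraries, so their values are given side by side and not correlated. The 7 genes Mitf, Cln3, Ctsl, Neu1, Asah1, Tpp1 and Grn were higher than control in both treatments and 4 (Hexa, Gusb, Glb1 and Sgsh) were lower in both. A further 4 (Lamp1, Ctsz, Atp6v1a and Atp6ap1) were higher with SAHA and lower in Smarcb1-RE, and 4 (Scarb2, Npc1, Gaa and Atp6v1h) were lower with SAHA and higher in Smarcb1-RE. Calls in SAHA alone were made for Lamp2, Cd68, Ctsb, Gla, Naglu and Atp6v0d1, all higher, and for Ctsa, lower. In Smarcb1-RE alone Mcoln1 was called higher, and Lipa and Psap lower. Tfeb, Tfe3, Ctsd and Npc2 were called in neither. Of all 13697 tested genes, 19.2% were higher in both, 21.5% lower in both, 7.48% higher with SAHA and lower in Smarcb1-RE, and 6.73% the reverse. A further 5.96% were higher and 6.05% lower with SAHA alone, 13.3% higher and 9.54% lower in Smarcb1-RE alone, and 10.2% were called in neither.

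**Figure D1:**
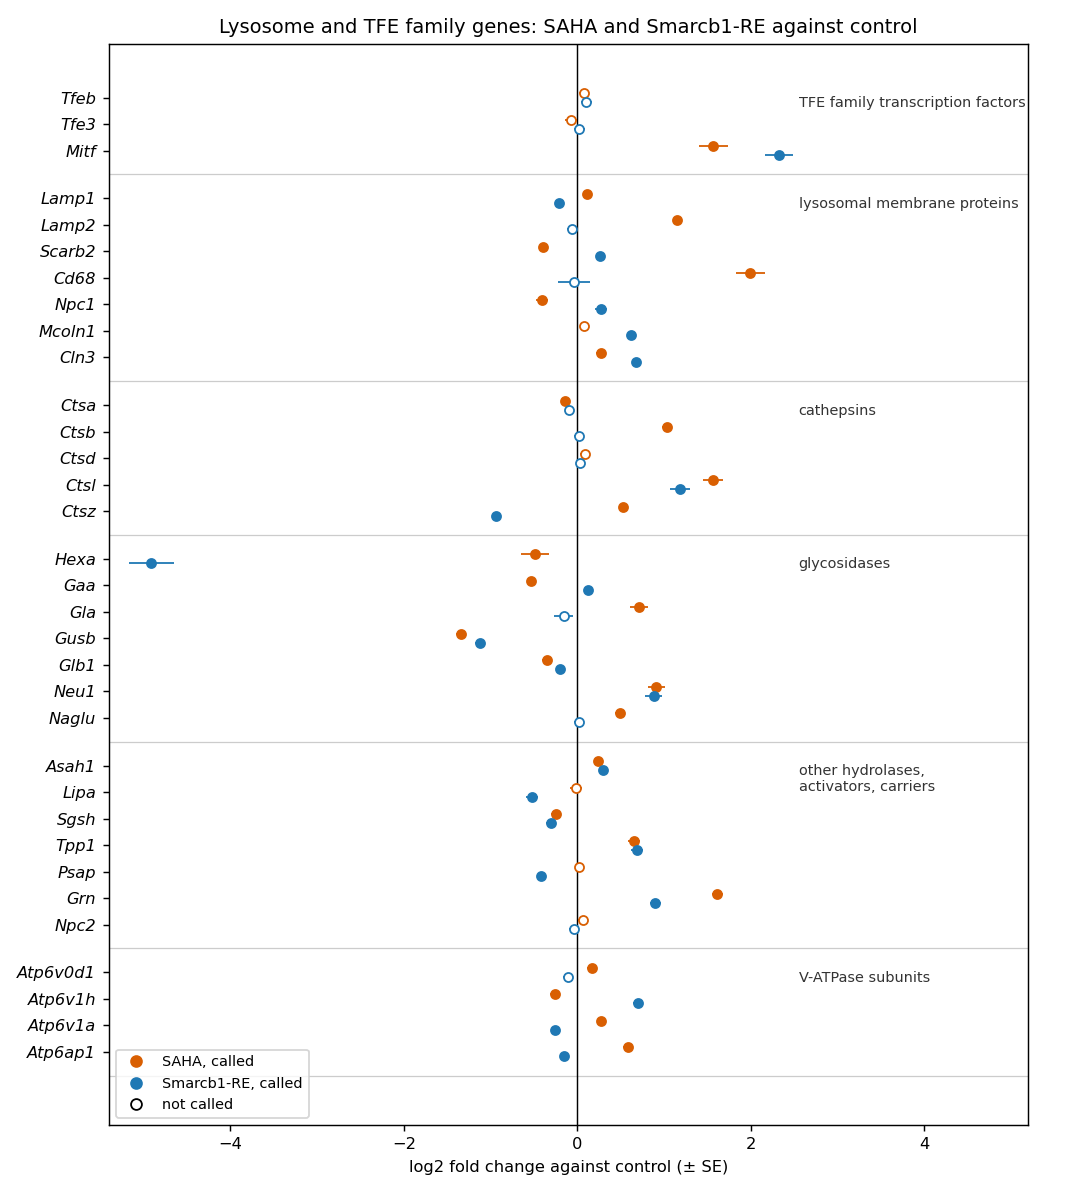
Log2 fold change against control with its standard error (x axis) for the 33 tested genes (y axis, by role), in SAHA (orange) and Smarcb1-RE (blue), with filled points for called genes. Hexa in Smarcb1-RE lies far to the left at -4.91, while Mitf, Cd68, Ctsl and Grn lie to the right with SAHA.

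Levels were also divided by the length of all annotated exons of a gene, whichever transcripts were expressed. This allows only a rough comparison of genes with each other. On this scale the mean level in control spanned from 645 CPM per kb for Ctsz to 0.212 for Mitf among tested genes. Psap followed Ctsz with 160 and Lamp1 with 57.7 CPM per kb. Tfe3 (3.20 CPM per kb) and Tfeb (2.25) were the main TFE family transcripts, and Mitf stayed below both also in Smarcb1-RE cells, where it reached 1.07. Ctsz, a carboxypeptidase of the papain family, thus headed the list in all groups, with 932 CPM per kb with SAHA and 336 in Smarcb1-RE. Cd63, a tetraspanin of late endosomes, and the proteases Ctss and Ctsh, which process antigen in myeloid and B cells, had at most 8 counts in any library and were not tested.

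**Figure D2:**
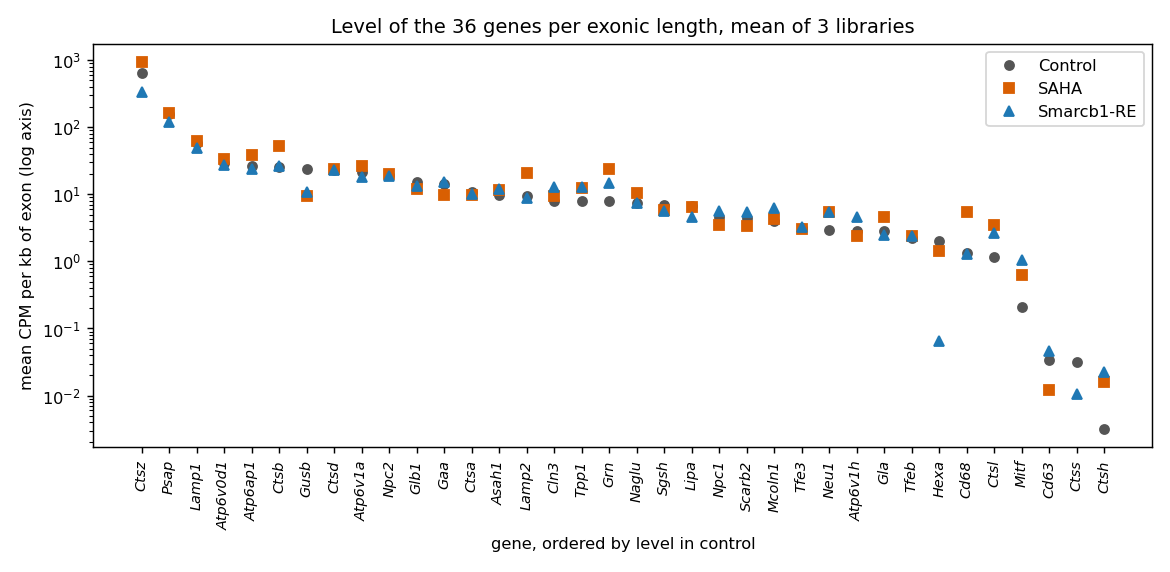
Mean CPM per kb of exon (y axis, log scale) of the 36 genes (x axis, ordered by level in control) in control (grey circles), SAHA (orange squares) and Smarcb1-RE (blue triangles), where Ctss in SAHA is at 0 and not drawn. Ctsz and Psap stand above the rest in all groups, and Cd63, Ctss and Ctsh lie below 0.1.

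Among the TFE family, only Mitf passed the test. Tfeb, the factor best known for lysosome biogenesis, had 12.8, 12.8 and 12.6 CPM in control, 13.2, 13.6 and 13.4 with SAHA and 13.9, 13.6 and 13.6 in Smarcb1-RE libraries. Both treated groups lay above the controls without overlap, by differences of 0.08 ± 0.06 and 0.10 ± 0.06 on the log2 scale that were not called (edgeR adjusted p = 0.313 and 0.144). Tfe3 had 29.2, 29.4 and 30.3 CPM in control, 26.2, 30.5 and 27.7 with SAHA and 27.8, 29.8 and 32.8 in Smarcb1-RE libraries, and all 3 groups overlapped. Its log2 differences from control were -0.08 ± 0.07 with SAHA and 0.02 ± 0.07 in Smarcb1-RE (edgeR adjusted p = 0.361 and 0.754). With library totals as the scale, Tfeb and Tfe3 were called higher in Smarcb1-RE, by 0.26 and 0.18, and Tfeb also when at least 10 counts were required in every library (0.16).

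Mitf, known for melanocyte, osteoclast and mast cell programmes, rose stepwise across the groups. It had 31, 30 and 33 counts in control, 73, 97 and 99 with SAHA and 148, 162 and 147 in Smarcb1-RE libraries, that is 1.27 to 1.36, 3.16 to 4.29 and 6.31 to 7.17 CPM. No library of a group overlapped with those of another. The log2 fold change against control was 1.57 ± 0.17 (SE) with SAHA (edgeR adjusted p = 3.63e-06) and 2.32 ± 0.16 in Smarcb1-RE (3.45e-08), and Smarcb1-RE exceeded SAHA by 0.76 ± 0.14 (0.000356). Mitf has several alternative promoters, and a count per gene does not say which of them was used. The summed level of 5 melanocyte markers moved in the same order, with 1.52 to 2.08 CPM in control, 2.50 to 2.70 with SAHA and 3.07 to 4.05 in Smarcb1-RE. This rise was that of Tyr, which encodes tyrosinase, with means of 0.853 CPM in control, 1.55 with SAHA and 2.63 in Smarcb1-RE. Tyr was higher in both treatments (log2 fold change 0.86 and 1.62, edgeR adjusted p = 0.027 and 0.000276). Pmel was not called (0.10 ± 0.28 with SAHA and -0.46 ± 0.30 in Smarcb1-RE). Of the other markers, Dct had at most 11 counts, and Tyrp1 and Mlana were at 0 in every library. The part of these markers in the change of Mitf was not tested. Tfec, the fourth family member, had 0 counts throughout.

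Of 7 tested lysosomal membrane proteins, 4 were higher and 2 lower with SAHA, and 4 were higher and 1 lower in Smarcb1-RE. Cd68, a heavily glycosylated membrane protein used as a macrophage marker, had 1.62, 1.48 and 1.97 CPM in control, 5.72, 7.20 and 7.32 with SAHA and 1.58, 1.73 and 1.64 in Smarcb1-RE libraries. All SAHA libraries lay above all others, a log2 fold change of 1.99 ± 0.16 against control (edgeR adjusted p = 3.83e-07). In Smarcb1-RE the difference of -0.04 ± 0.18 was not called. None of 11 other macrophage and monocyte markers reached the test, and their summed level was 0.634 to 0.723 CPM in control, 0.0433 to 0.258 with SAHA and 0.177 to 0.384 in Smarcb1-RE. Fcgr1, C1qa, C1qb and C1qc were at 0 everywhere, and Csf1r had at most 1 count.

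Lamp2, one of the major structural membrane proteins and a receptor of chaperone-mediated autophagy, doubled with SAHA alone. It had 89.1, 91.1 and 87.8 CPM in control, 185, 206 and 205 with SAHA and 82.0, 88.7 and 85.4 in Smarcb1-RE libraries. The SAHA libraries stood clear of the rest, with a log2 fold change of 1.15 ± 0.05 (edgeR adjusted p = 2.71e-09), whereas that in Smarcb1-RE was -0.07 ± 0.05 and not called. Lamp1, its close relative, differed much less, by 0.11 ± 0.05 with SAHA (0.0492) and by -0.21 ± 0.05 in Smarcb1-RE (0.00136), and its SAHA libraries of 155 to 174 CPM overlapped with controls of 149 to 158. This SAHA call of Lamp1 was lost when any of 7 libraries was left out, all except SAHA replicate 1 and control replicate 1 (log2 fold change 0.08 to 0.12, edgeR adjusted p up to 0.209). It was also lost with a replicate block, with no filter, with separate fits of each pair of groups and with library totals as the scale (edgeR adjusted p = 0.0708, 0.138, 0.0759 and 0.0505).

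Mcoln1 and Cln3, both among the genes with TCACGTGA in a promoter window, were raised mainly in Smarcb1-RE. Mcoln1, the calcium channel of the lysosomal membrane, had 31.9, 29.7 and 30.0 CPM in control, 31.9, 33.8 and 31.2 with SAHA and 46.1, 46.9 and 47.8 in Smarcb1-RE libraries. Smarcb1-RE was separate from both other groups and 0.62 ± 0.05 above control on the log2 scale (edgeR adjusted p = 9.36e-08), while the difference with SAHA was 0.08 ± 0.05 and not called. Cln3, a membrane protein mutated in juvenile neuronal ceroid lipofuscinosis, rose from 42.9 to 49.4 CPM in control to 52.5 to 59.1 with SAHA and 72.8 to 74.3 in Smarcb1-RE, by 0.27 ± 0.06 and 0.68 ± 0.06 (0.00127 and 2.02e-07). The gene span of Cln3 overlaps with that of Apobr on the opposite strand. Scarb2, the receptor that carries glucocerebrosidase to lysosomes, and the cholesterol transporter Npc1 went down with SAHA (-0.39 ± 0.05 and -0.40 ± 0.07) and up in Smarcb1-RE (0.26 ± 0.05 and 0.27 ± 0.07). The gene span of Npc1 overlaps with Rmc1 on the opposite strand.

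Of 5 tested cathepsins, 3 were higher and 1 lower with SAHA, 1 was higher and 1 lower in Smarcb1-RE, and none was higher in Smarcb1-RE than in SAHA. Ctsz had 976, 904 and 908 CPM in control, 1310, 1359 and 1362 with SAHA and 488, 483 and 482 in Smarcb1-RE libraries. The groups were well apart, with log2 fold changes of 0.53 ± 0.04 and -0.94 ± 0.04 against control (edgeR adjusted p = 1.8e-07 and 5.01e-10), and the difference of Smarcb1-RE from SAHA was -1.47 ± 0.04 (1.37e-11). Ctsb, an abundant cysteine protease, doubled with SAHA from 156, 156 and 156 to 290, 332 and 331 CPM (1.03 ± 0.05, 6e-09), whereas Smarcb1-RE libraries had 157, 160 and 156 CPM (0.02 ± 0.05, not called). The gene span of Ctsb overlaps with that of Fdft1 on the opposite strand.

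Ctsl, a cysteine endoprotease, rose in both treatments. It had 8.68, 6.55 and 7.53 CPM in control, 19.1, 25.3 and 23.0 with SAHA and 16.7, 17.2 and 17.5 in Smarcb1-RE libraries. None of the groups overlapped, and the log2 fold changes against control were 1.57 ± 0.11 and 1.18 ± 0.12 (edgeR adjusted p = 1.13e-07 and 8.68e-07). Smarcb1-RE differed from SAHA by -0.39 ± 0.10 (0.00421), a call that was lost with library totals as the scale (-0.23, adjusted p = 0.0582). Ctsd, the main aspartic protease of the lysosome, had 52.6 to 56.1 CPM in control, 54.1 to 58.9 with SAHA and 52.3 to 57.0 in Smarcb1-RE, and was not called (0.08 ± 0.05 and 0.03 ± 0.05). Its gene span overlaps with that of another gene model, Gm49369, on the same strand. Whether reads of Ctsd were assigned there was not tested.

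**Figure D3:**
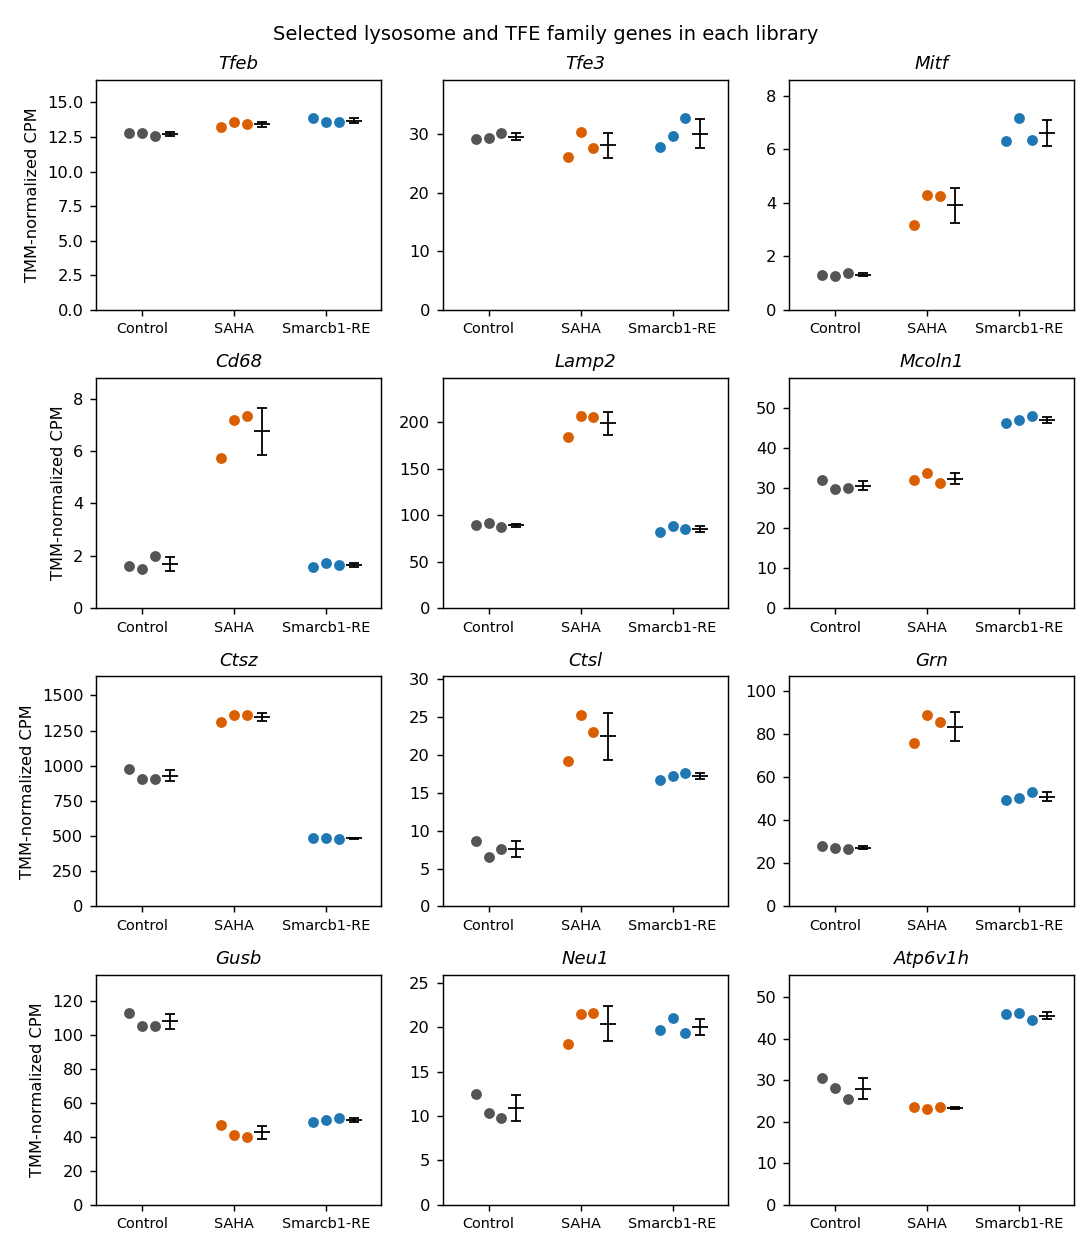
TMM-normalized CPM (y axis, from 0) of 12 of the genes in each of the 9 libraries (points, by group on the x axis), with the mean and SD of each group in black. Mitf steps up from control to SAHA to Smarcb1-RE, Cd68 and Lamp2 are high in SAHA alone, Mcoln1 and Atp6v1h are high in Smarcb1-RE, and Ctsz is highest with SAHA and lowest in Smarcb1-RE.

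Glycosidases, which remove sugars from glycoproteins, glycolipids and glycosaminoglycans, split within the group. With SAHA 3 of 7 were higher and 4 lower, and in Smarcb1-RE 2 were higher and 3 lower. Hexa, the alpha subunit of beta-hexosaminidase, had the largest change of the whole list. It was counted 106, 100 and 84 times in control, 62, 63 and 74 times with SAHA and 3, 3 and 3 times in Smarcb1-RE libraries. The Smarcb1-RE libraries all sat at the detection floor of 3 counts. Summed over libraries, 9 counts stood against 290, which is 3.21% of the control level after scaling, with a 95% interval of 1.45% to 6.17% for counting error alone (exact Clopper-Pearson). The log2 fold change in the fit was -4.91 ± 0.26 in Smarcb1-RE (edgeR adjusted p = 2.49e-09) and -0.49 ± 0.16 with SAHA (0.0176). The SAHA call was lost with DESeq2 (adjusted p = 0.064) and when control replicate 1 or SAHA replicate 1 or 2 was left out (-0.41, -0.45 and -0.47).

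Gm2a, the activator protein that presents GM2 ganglioside for breakdown by beta-hexosaminidase, went the other way in Smarcb1-RE. It had 22.5, 23.6 and 21.7 CPM in control, 48.8, 58.0 and 59.2 with SAHA and 45.6, 44.6 and 43.0 in Smarcb1-RE libraries, that is log2 fold changes of 1.29 ± 0.07 and 0.97 ± 0.07 against control (edgeR adjusted p = 1.38e-08 and 6.35e-08). Gm2a was thus raised where Hexa was close to 0. Among protein-coding genes whose starts lie within 300 kb of that of Hexa on chromosome 9, 7 were tested, of which 3 were higher and 2 lower in Smarcb1-RE. These 7 log2 fold changes ran from -1.17 for Pkm to 1.15 for Bbs4, and the nearest tested gene, Arih1, gave -0.02. This neighbourhood was looked at after the value of Hexa was seen.

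**Figure D4:**
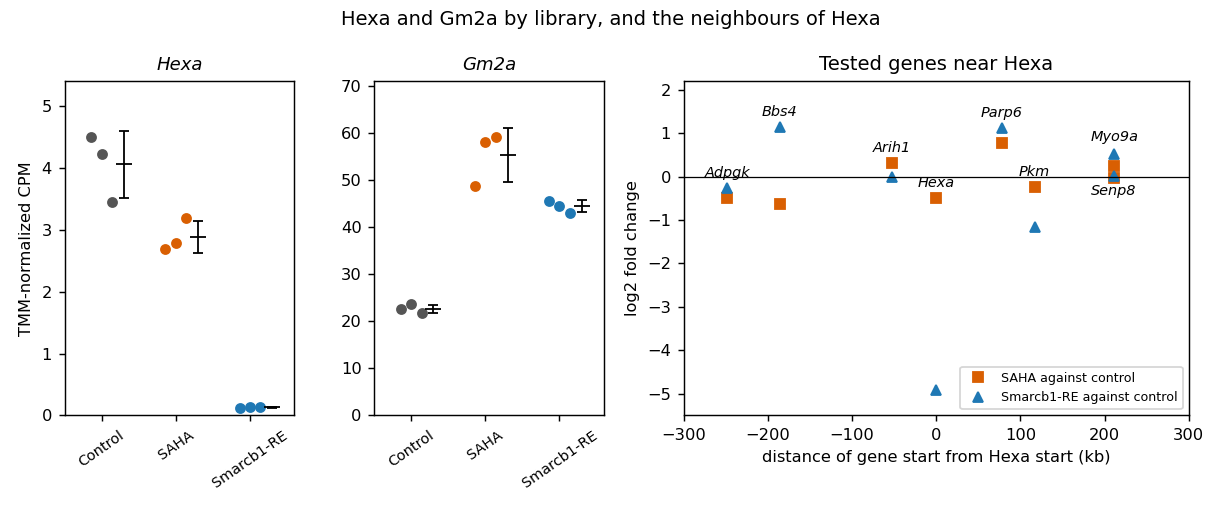
CPM (y axis, from 0) of Hexa and Gm2a in each library with the mean and SD in black, and at the right the log2 fold change against control of the tested protein-coding genes near Hexa by distance of their starts (x axis, kb). Hexa is near 0 in the 3 Smarcb1-RE libraries while Gm2a is above control, and no neighbour falls as far as Hexa.

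Gusb, the beta-glucuronidase often used as a reference gene, fell in both treatments. It had 113, 105 and 106 CPM in control, 47.0, 40.9 and 40.1 with SAHA and 48.5, 49.8 and 50.9 in Smarcb1-RE libraries. Treated and control libraries were far apart, with log2 fold changes of -1.34 ± 0.06 and -1.12 ± 0.06 (edgeR adjusted p = 2.76e-09 and 2.12e-09). Neu1, the lysosomal sialidase, rose from 12.5, 10.4 and 9.79 CPM to 18.2, 21.5 and 21.6 with SAHA and 19.7, 21.1 and 19.4 in Smarcb1-RE, by 0.91 ± 0.10 and 0.88 ± 0.10 (3.74e-06 and 2.98e-06). The direct difference between the treatments was -0.03 ± 0.09 and not called. Neu1 and Ctsa, which form a complex with Glb1 in the lysosome, did not move together, since Ctsa and Glb1 were lower with SAHA, with log2 fold changes of -0.15 ± 0.04 and -0.35 ± 0.06. In Smarcb1-RE Ctsa differed from control by -0.10 ± 0.04 (0.0573), a value that passed the threshold without control replicate 2 or SAHA replicate 1 or 2 (-0.14, -0.11 and -0.11) and with median-ratio scaling or no filter (-0.10 and -0.12).

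Naglu, which degrades heparan sulphate, rose with SAHA alone (0.49 ± 0.05) and had 19.5, 20.3 and 20.2 CPM in Smarcb1-RE beside 19.4, 19.1 and 20.8 in control. Gla, the alpha-galactosidase deficient in Fabry disease, was likewise called with SAHA alone, with 0.71 ± 0.10 against -0.16 ± 0.11, the latter not called. Gaa, which breaks down glycogen, fell with SAHA from 63.9, 71.4 and 69.0 to 46.3, 48.3 and 46.9 CPM (-0.53 ± 0.05, edgeR adjusted p = 8.18e-07). Its rise to 74.3, 75.6 and 72.8 CPM in Smarcb1-RE was small (0.12 ± 0.05, 0.0264) and the call was lost without control replicate 1 or 3, SAHA replicate 1 or 2, or Smarcb1-RE replicate 1 or 2 (log2 fold change 0.07 to 0.12), and with DESeq2, no filter or separate fits (adjusted p = 0.0627, 0.13 and 0.0607). The gene span of Glb1 overlaps with that of Tmppe on the same strand.

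Of the 7 other hydrolases, activators and carriers, 3 were higher and 1 lower with SAHA and 3 higher and 3 lower in Smarcb1-RE. Grn, the progranulin precursor whose products support hydrolase function, rose the most. It had 28.0, 27.2 and 26.6 CPM in control, 75.6, 88.8 and 85.5 with SAHA and 49.2, 50.5 and 53.0 in Smarcb1-RE libraries. All 3 groups were separate, with log2 fold changes of 1.61 ± 0.06 and 0.90 ± 0.06 against control (edgeR adjusted p = 1.44e-09 and 3.75e-08) and of -0.71 ± 0.06 between Smarcb1-RE and SAHA (1.82e-07). Tpp1, a tripeptidyl peptidase, rose in both, from 36.7, 41.4 and 44.2 CPM to 59.9, 65.5 and 67.6 with SAHA and 69.4, 61.8 and 66.3 in Smarcb1-RE (0.66 ± 0.07 and 0.69 ± 0.07).

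Lower levels in Smarcb1-RE were found for Psap and Lipa. Psap, the precursor of the saposins that activate sphingolipid hydrolases, had 437, 444 and 439 CPM in control, 436, 451 and 451 with SAHA and 324, 328 and 339 in Smarcb1-RE libraries (-0.41 ± 0.04, edgeR adjusted p = 3.3e-07). Lipa, the acid lipase, had 40.4, 48.0 and 46.3 CPM in control, 41.6, 47.3 and 44.1 with SAHA and 30.3, 33.5 and 30.0 in Smarcb1-RE libraries (-0.52 ± 0.07, 2.49e-05). In both genes SAHA overlapped with control. Npc2, the lumenal partner of Npc1 in cholesterol export, had 102 to 115 CPM in control, 103 to 117 with SAHA and 101 to 106 in Smarcb1-RE and was called in no comparison. Without control replicate 1 it was called higher with SAHA (0.12), and without that library or SAHA replicate 1 it was called lower in Smarcb1-RE than in SAHA (-0.10 and -0.17). The ceramidase Asah1 was higher in both treatments (0.24 ± 0.05 and 0.30 ± 0.05) and the sulphamidase Sgsh lower in both (-0.25 ± 0.06 and -0.30 ± 0.06).

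The 4 proton pump subunits were called in all cases with SAHA, 3 higher and 1 lower, and in Smarcb1-RE 1 was higher and 2 lower. Atp6v1h, a regulatory subunit of the cytoplasmic V1 sector, ran against the rest. It had 30.5, 28.1 and 25.5 CPM in control, 23.6, 23.2 and 23.6 with SAHA and 46.0, 46.2 and 44.6 in Smarcb1-RE libraries. It was thus lowest with SAHA and highest in Smarcb1-RE without overlap, by -0.26 ± 0.06 and 0.70 ± 0.06 against control (edgeR adjusted p = 0.00292 and 2.09e-07). Atp6ap1, an accessory subunit, had 81.8, 76.0 and 80.0 CPM in control, 109, 120 and 126 with SAHA and 72.0, 70.9 and 71.4 in Smarcb1-RE libraries (0.58 ± 0.05 and -0.15 ± 0.05, 9.39e-07 and 0.0227). Its call in Smarcb1-RE was lost without Smarcb1-RE replicate 2 or 3 (-0.15 in both cases).

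Atp6v1a, the catalytic subunit of V1, followed the same order, with 123, 140 and 134 CPM in control, 156, 158 and 164 with SAHA and 110, 113 and 110 in Smarcb1-RE (0.27 ± 0.05 and -0.25 ± 0.05, edgeR adjusted p = 0.000272 and 0.000375). Atp6v0d1, a subunit of the membrane sector V0, was 0.16 ± 0.06 above control with SAHA (0.0227) although the libraries overlapped, and -0.10 ± 0.06 in Smarcb1-RE, not called. Its SAHA call was lost without control replicate 3 or SAHA replicate 2 or 3 (0.12 to 0.15), and it was called lower in Smarcb1-RE without control replicate 3 (-0.16). With library totals as the scale, the Smarcb1-RE calls of Atp6v1a and Atp6ap1 were lost as well (-0.10 and 0.01).

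Summed over role groups, cathepsin transcripts amounted to 1169 to 1249 CPM in control, 1721 to 1821 with SAHA and 760 to 765 in Smarcb1-RE, most of it Ctsz. Glycosidases amounted to 263 to 268 CPM in control and were lower in both treatments, with 190 to 194 with SAHA and 212 to 215 in Smarcb1-RE. Most of this difference was Gusb, with means of 108 CPM in control, 42.7 with SAHA and 49.7 in Smarcb1-RE. Proton pump subunits summed to 288 to 300 CPM in control, 345 to 377 with SAHA and 277 to 278 in Smarcb1-RE, but with library totals as the scale the Smarcb1-RE libraries lay above control (296 to 300 against 274 to 289). Membrane proteins were above control in both treatments, with 399 to 405 CPM in control, 489 to 538 with SAHA and 434 to 441 in Smarcb1-RE. Most of the rise with SAHA was Lamp2, with means of 89.3 CPM in control and 199 with SAHA.

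**Figure D5:**
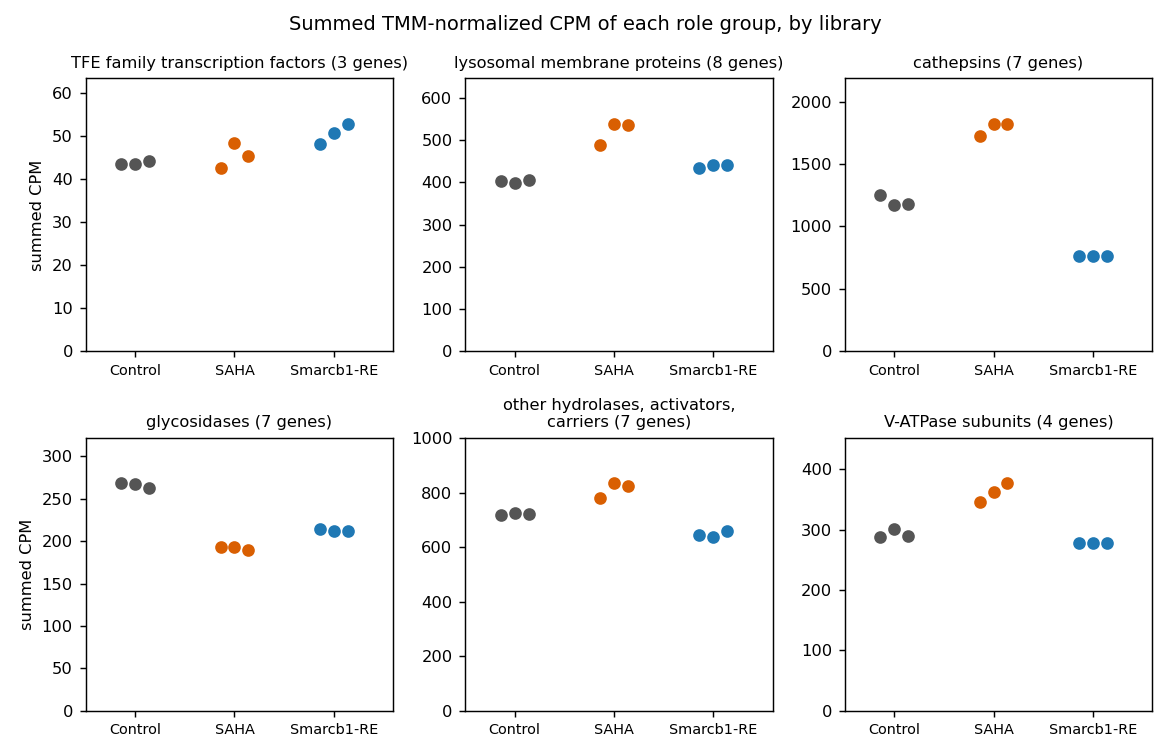
Summed TMM-normalized CPM (y axis, from 0) of the genes of each role group in each of the 9 libraries (points), by group on the x axis. Cathepsins are highest with SAHA and lowest in Smarcb1-RE, whereas glycosidases are highest in control.

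Set directly against SAHA, Smarcb1-RE had 9 of the 33 genes higher and 15 lower, beside 37.7% and 36.8% of all tested genes, and a median log2 difference of -0.06 against 0.02 over all genes. With library totals as the scale the split was 14 higher and 13 lower. Tfeb, Tfe3, Ctsa, Asah1 and Tpp1 were gained as higher, and Ctsl and Atp6v0d1 were lost as lower. Over all genes that scale moved the share higher among those called from 50.6% to 62.1%. The median became 0.18 over all genes and 0.1 over the 33 genes. The 5 genes lower by more than 1 on the log2 scale were Hexa (-4.42), Cd68 (-2.03), Ctsz (-1.47), Lamp2 (-1.22) and Ctsb (-1.01). Higher in Smarcb1-RE were Atp6v1h (0.96), Mitf (0.76), Npc1 (0.68), Scarb2 (0.66), Gaa (0.65), Mcoln1 (0.54), Cln3 (0.41), Gusb (0.22) and Glb1 (0.15). The last of these calls, Glb1, was lost without SAHA replicate 2 or 3 or Smarcb1-RE replicate 1 (0.08 to 0.14), and with DESeq2 (adjusted p = 0.0685). No gene was above SAHA by 1 or more.

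Genes with the E-box in a promoter window did not form a uniform class. Of the 7 with TCACGTGA, all tested, 4 were higher and 1 lower with SAHA (log2 fold change -0.15 to 0.71), and 2 were higher and 1 lower in Smarcb1-RE (-0.25 to 0.68). Among the 13 genes with CACGTG, 7 were higher and 4 lower with SAHA and 4 higher and 4 lower in Smarcb1-RE. Of 16 tested genes whose windows lack it, 8 were higher and 3 lower with SAHA, and 5 higher and 6 lower in Smarcb1-RE. Over all tested genes, 32.6% were called higher and 34.3% lower with SAHA, and 39.2% and 38.6% in Smarcb1-RE. Whether these small classes differ from those shares was not tested. The 4 genes with the largest change in either comparison, Hexa, Mitf, Cd68 and Grn, had neither motif in these windows, and the next, Ctsl, had CACGTG.

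Of 115 further genes of lysosome biology, 111 were tested, of which 45 were higher and 31 lower with SAHA and 39 higher and 46 lower in Smarcb1-RE, to be read beside the 32.6% and 34.3%, and 39.2% and 38.6%, of all tested genes. In the list of other hydrolases and cofactors, 11 of 25 were higher and 6 lower with SAHA and 10 higher and 8 lower in Smarcb1-RE. Lgmn, an asparaginyl endopeptidase that matures cathepsins, rose with SAHA alone (1.45 ± 0.06, edgeR adjusted p = 2.67e-09, against 0.05 ± 0.07 in Smarcb1-RE, not called). Dnase2a, the acid DNase, rose in both (0.74 ± 0.09 and 1.36 ± 0.08). Acp5, the tartrate-resistant acid phosphatase, fell from 10.5, 8.41 and 9.29 CPM in control to 4.55, 4.11 and 4.39 with SAHA and 0.512, 0.841 and 0.604 in Smarcb1-RE. This amounted to -1.11 ± 0.13 and -3.84 ± 0.17 (9.5e-06 and 7.23e-10).

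Among 13 other membrane and transport genes, 6 were higher and 4 lower with SAHA and 6 higher and 3 lower in Smarcb1-RE. The cystine exporter Ctns rose in both (1.72 ± 0.11 and 1.06 ± 0.12, edgeR adjusted p = 5.63e-08 and 3.11e-06), as did the sialic acid exporter Slc17a5 (0.60 ± 0.08 and 0.53 ± 0.08). Slc38a9, which senses lysosomal arginine for mTORC1, rose by 0.33 ± 0.05 with SAHA and 0.95 ± 0.05 in Smarcb1-RE. Of 13 other proton pump subunits, 6 were higher and 3 lower with SAHA and 5 higher and 7 lower in Smarcb1-RE. Atp6v0a1 rose with SAHA (1.01 ± 0.07) and less in Smarcb1-RE (0.30 ± 0.07), whereas Atp6v1c1 was higher with SAHA (0.68 ± 0.04) and lower in Smarcb1-RE (-0.19 ± 0.04). The proteolipid subunit gene Atp6v0b rose in both (0.52 ± 0.06 and 0.69 ± 0.06), and Atp6v1e1 was lower in Smarcb1-RE (-0.71 ± 0.06) with 0.02 ± 0.06 under SAHA, not called.

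Sorting genes, which tag and carry new hydrolases, were lower in Smarcb1-RE in 7 of 10 cases and higher in 1, and with SAHA 3 were higher and 4 lower. Nagpa, the enzyme that uncovers the mannose 6-phosphate tag, had 28.6, 28.7 and 29.5 CPM in control, 20.8, 20.0 and 18.9 with SAHA and 10.9, 9.52 and 9.31 in Smarcb1-RE libraries. The groups did not overlap, with log2 fold changes of -0.54 ± 0.06 and -1.54 ± 0.07 (edgeR adjusted p = 8.91e-06 and 7.03e-10). Sumf1, which activates lysosomal sulphatases, was higher with SAHA (0.21 ± 0.06) and lower in Smarcb1-RE (-0.61 ± 0.06). The mannose 6-phosphate receptor Igf2r and the phosphotransferase subunit Gnptg rose with SAHA (0.69 ± 0.06 and 0.81 ± 0.06) and were not called in Smarcb1-RE (0.08 ± 0.06 in both). The sorting genes M6pr and Gnptab were lower in both treatments (-0.18 ± 0.04 and -0.54 ± 0.05 with SAHA, -0.59 ± 0.04 and -0.54 ± 0.05 in Smarcb1-RE).

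In the list of mTORC1 and TFE regulators, 8 of 22 were higher and 10 lower with SAHA, and 8 higher and 9 lower in Smarcb1-RE. Mtor, the kinase, rose with SAHA (0.92 ± 0.05, edgeR adjusted p = 1.82e-08) and in Smarcb1-RE (0.42 ± 0.05), while its partner Mlst8 was lower in both (-0.77 ± 0.06 and -0.13 ± 0.06). The Rag GTPase gene Rragb had 10.6, 8.62 and 9.01 CPM in control, 4.81, 6.14 and 5.73 with SAHA and 18.4, 19.0 and 18.4 in Smarcb1-RE libraries. It was thus lower with SAHA and higher in Smarcb1-RE (-0.76 ± 0.11 and 0.99 ± 0.09). Lamtor5, a subunit of the Ragulator scaffold, was lower in both (-0.36 ± 0.06 and -0.70 ± 0.06). Of 28 autophagy genes, 11 were higher and 4 lower with SAHA and 9 higher and 12 lower in Smarcb1-RE. Wipi1, a phosphoinositide-binding protein of forming autophagosomes, rose with SAHA from 1.62, 2.28 and 1.93 to 8.75, 10.6 and 12.3 CPM (2.43 ± 0.17, 7.43e-08), and its difference in Smarcb1-RE was 0.31 ± 0.19 and not called. The autophagy receptor Optn rose in both treatments (0.87 ± 0.07 and 1.03 ± 0.07), and Atg14, a subunit of the autophagic lipid kinase complex, was lower with SAHA (-0.24 ± 0.09) and higher in Smarcb1-RE (0.57 ± 0.09).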

How the data were processed

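Total RNA of 9 T15 cultures was made into directional, single-end libraries. The authors deposited 1 table of estimated counts with a column for each library and no normalization, in which 52.4% of the values above 0 were not whole. The submitters' processing notes name Salmon 0.14.1, DESeq2 1.22.2, FastQC 0.11.8, MultiQC 1.7 and GRCm38, with no role given. Values were rounded to whole numbers and tested with edgeR 4.0.16 in R 4.3.3 (limma 3.58.1), with filterByExpr at a minimum count of 10, TMM factors, glmQLFit and glmQLFTest with 3 groups in a single fit, and Benjamini-Hochberg adjustment over 13697 genes. Standard errors were derived from the F statistic of each log2 fold change. Differences between Smarcb1-RE and SAHA came from the same fit. Symbols and exon lengths came from GENCODE M21, which held 99.3% of the 35288 identifiers, and promoter windows from RefSeq (GRCm38.p6).

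On simulated counts with 200 genes changed by 1 on the log2 scale, 98.5% were recovered in each comparison with control. Among the calls, 3.9% were false for SAHA and 5.29% for Smarcb1-RE. The simulation gave all genes the same dispersion and held no smaller changes, such as most of those called in the list. In the data far more genes were called, 4464 higher and 4700 lower with SAHA and 5371 and 5282 in Smarcb1-RE. These rates therefore do not cover the scaling of libraries in which most genes change. Alternatives were DESeq2 1.42.0, other scalings, filters, thresholds and samples. The members and gene lists were chosen with earlier results of these data known. Genes named with values were Tfeb, Tfe3, Mitf and, in each role group and comparison with control, the 2 called genes with the largest and the tested gene with the smallest log2 fold change. In each further list they were the 2 called genes with the largest change at an average log2 CPM of at least 1. Other names were added after values were seen. Samples were grouped by the treatment label, and replicate numbers came from the titles. Same-numbered libraries of different groups deviated together only weakly (correlations -0.121 to 0.119), so no pairing was used. The methods call the replicates biological, without saying whether those of Smarcb1-RE are clones, so the p-values measure the spread between these libraries.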

Additional observations from a re-analysis of the deposited data

How the results depend on the processing

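Of 1779 fold changes of the 33 genes recomputed under the alternatives, 1685 kept direction and call, 45 lost the call, 20 gained it and 29 changed sign. When a log2 change of at least 1 in size was required, 6 of the 33 genes were higher and 1 lower with SAHA. The counts were 2 and 2 in Smarcb1-RE, and 0 and 5 for Smarcb1-RE against SAHA. That threshold removes small changes by construction. Of all 13697 tested genes, 1671 changed by more than 1 in either direction with SAHA, 3237 in Smarcb1-RE and 2706 between the treatments. Of the 33 genes, 7, 4 and 5 did so. Whether the 33 genes differ from all genes in this was not tested. Library totals alone gave 6 lower genes in Smarcb1-RE and 14 higher against SAHA, where 61% and 62.1% of all called genes were higher. DESeq2 gave 17 higher and 8 lower with SAHA, 11 and 10 in Smarcb1-RE, and 8 and 15 between the treatments. Leaving out each library in turn gave 15 to 18 higher and 8 to 9 lower with SAHA, 11 to 12 and 9 to 11 in Smarcb1-RE, and 8 to 9 and 15 to 16 between them. A replicate block by number gave 16 higher and 9 lower with SAHA and unchanged counts of 12 and 10, and 9 and 15, in the other comparisons; the numbers do not pair the libraries by the check described in the methods. Hexa had no value with at least 10 counts required in every library.

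None of the sign changes concerned a called value except Atp6ap1. For Smarcb1-RE against control, library totals gave 0.008 for Atp6ap1, 0.055 for Atp6v0d1, 0.12 for Cd68, 0.063 for Ctsa, 0.000 for Gla, 0.094 for Lamp2 and 0.123 for Npc2. Against SAHA they gave 0.108 for Ctsd, 0.131 for Neu1, 0.058 for Npc2 and 0.1 for Sgsh. At least 10 counts in every library gave 0.017 for Cd68 and 0.019 for Npc2 in Smarcb1-RE and 0.015 for Lipa with SAHA. No filter gave -0.01 for Ctsb, -0.01 for Naglu and -0.003 for Tfe3 in Smarcb1-RE, and thinning to the smallest library 0.005 for Lipa with SAHA. Leaving out a library gave -0.14 to 0.077 for Cd68, -0.02 to 0.042 for Naglu, -0.083 to 0.015 for Npc2 and -0.043 to 0.067 for Tfe3 in Smarcb1-RE, -0.091 to 0.029 for Lipa with SAHA, and -0.028 to 0.076 for Tpp1 and -0.119 to 0.01 for Neu1 against SAHA. The other causes were not tested. Levels near 3 counts, such as Hexa in Smarcb1-RE, are limited by depth.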
